A study of Mus musculus with 6 samples.

Results

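The genes described here are 46 genes of the extracellular matrix and of the cell surface that binds and cuts it, chosen by name: 11 collagens, 10 laminins and other basement membrane genes, 10 integrins, 9 proteases and protease inhibitors, and 6 matrix glycoproteins and surface receptors. Values were present for 45 of the 46 in tables of 25330 genes, and the integrin Itgb8 was not analysed here. Of the 45 genes, 36 had enough reads for a test among the 14020 genes tested. The 9 others (Col1a2, Col3a1, Col5a2, Lama3, Nid2, Mmp2, Mmp15, Timp3 and Tnc) had too few and are given by their raw counts.

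RNA-seq was performed on 6 libraries of AML12 cells, an immortalized mouse hepatocyte line of WT genotype. The cells were grown in DMEM/F12 with 10% serum, insulin-transferrin-selenium supplement and 40 ng/mL dexamethasone. The 3 control libraries came from cells kept in normoxia, at 21% oxygen and 5% CO2. The 3 others came from cells given medium without serum and glucose at 1% oxygen for 6 h and then reoxygenated for 2 h (labelled H6R2, here H/R). H/R is a culture model of liver ischemia and reperfusion, and the comparison asks which genes change in hepatocytes under it. Oxygen and medium changed together, so the effects of hypoxia, of reoxygenation, of serum loss and of glucose loss cannot be told apart. No source used here says that the libraries of a group came from separate cultures, so the p-values below measure the spread between these samples, which may be technical.

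Total counts ranged from 20438746 to 21854790 reads per library. Of 11 hepatocyte markers, 11 were tested, with 3 higher and 7 lower after H/R. Alb was low and uneven in control, with an RPKM (reads scaled to exon length and library total) of 10.59, 2.681 and 4.186. After H/R it was 0.8945, 0.6476 and 0.7266. Mean RPKM in control and after H/R was 29.55 and 20.62 for Hnf4a and 25.11 and 26.83 for Foxa2. For the epithelial keratin gene Krt8 it was 1394 and 2048. The summed RPKM of the list, most of it from Krt8 and Krt18, was 2510 to 2720 in control and 3740 to 3770 after H/R. Of 8 biliary and epithelial markers, 6 were tested, with 5 higher and 1 lower, and the summed RPKM of the list was 693 to 785 in control and 1130 to 1190 after H/R. Their part in the results below was not tested. Markers of the cells that make most matrix in the liver were nearly absent: of 12 stellate cell and fibroblast markers, 8 (Pdgfrb, Acta2, Lrat, Reln, Dcn, Lum, Rgs5 and Hand2) had at most 3 counts in every library, and the summed RPKM of the list was 0.219 to 0.303 in control and 0.186 to 0.255 after H/R. Of 8 endothelial markers none had enough reads for a test, and of 8 blood cell and macrophage markers Cd68 and Csf1r were tested and higher while Ptprc had at most 3 counts in every library. Control replicate 1 stood apart, with 59 genes that had at least 10 counts there and at most 2 elsewhere, none of them a gene described here. In bulk RNA, fewer cells and less RNA per cell cannot be told apart.

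The extracellular matrix is the protein mesh that surrounds cells. Many epithelial cells rest on basement membranes built from laminin trimers and type IV collagen, tied together by nidogens and by the proteoglycans perlecan and agrin. Integrins are paired receptors, each of an alpha and a beta chain, that hold cells to collagens, laminins and fibronectin and signal from them. Metalloproteases cut the matrix and shed surface proteins, tissue inhibitors of metalloproteases (TIMPs) restrain them, and syndecans are surface proteoglycans that assist integrins in binding fibronectin. In injured liver these genes are best known for scarring, where collagen made by stellate cells replaces lost tissue.

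The matrix genes moved in both directions. With p-values from the quasi-likelihood test of edgeR, adjusted by Benjamini-Hochberg over every gene tested, 29 of 36 differed at an adjusted p under 0.05 (80.6%), against 62.8 percent of all 14020 genes tested. Of these, 17 were higher after H/R (47.2%, against 31.0 percent of all genes) and 12 were lower (33.3%, against 31.8 percent), and 7 did not pass. The lower count was the less stable of the pair, since DESeq2 called 17 higher and 7 lower. Only 3 genes also changed at least 2-fold, Sdc4, Col12a1 and Lama5, all higher, which is 8.33% of those tested and close to the 8.52 percent of all genes. The libraries of the 2 groups did not overlap for 28 genes (77.8%, against 65.9 percent). The median log2 fold change was 0.07, beside -0.01 over all genes tested. Taken as a share of all reads, the 45 genes made up 0.597% to 0.629% in control and 0.640% to 0.662% after H/R.

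**Figure D1:**
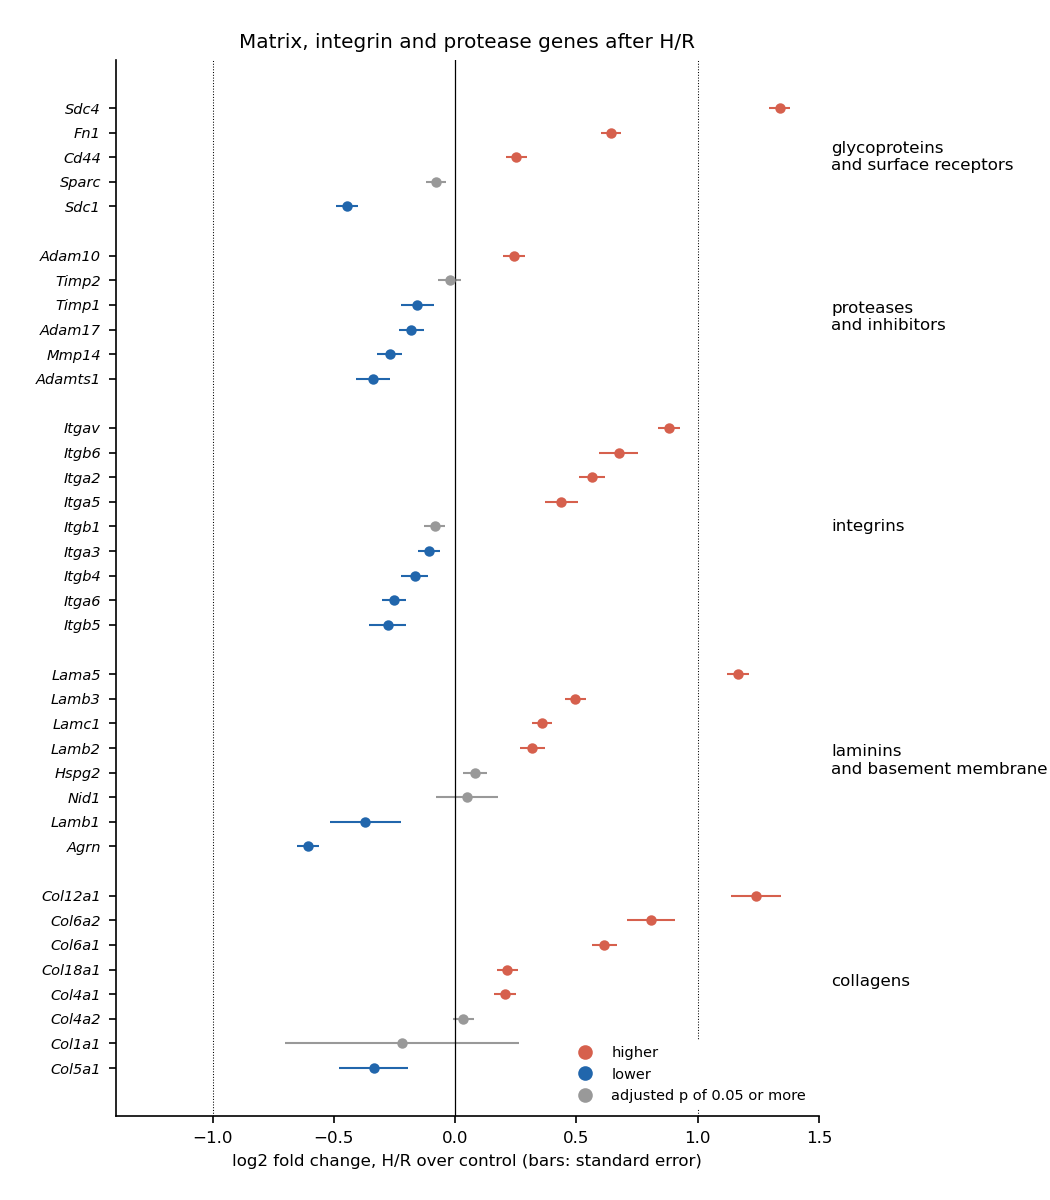
Log2 fold change, H/R over control, of the 36 tested genes by group, from 3 libraries against 3; bars are standard errors, red is higher and blue lower at an adjusted p under 0.05, grey did not pass, and dotted lines mark 2-fold. Sdc4, Col12a1 and Lama5 lie beyond the right dotted line, and the lowest gene, Agrn, lies at -0.61.

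A change of scaling shifts all values together. The libraries were scaled by TMM (trimmed mean of M-values), with factors of 1.02 to 1.06 in control and 0.958 to 0.975 after H/R. When they were scaled by their totals alone, the median of all genes moved from -0.0141 to -0.119. All 17 higher and 12 lower genes kept their direction under the 3 scalings tried. Differences of about 0.1 or less on the log2 scale, which include Col4a2, Nid1, Hspg2, Itgb1, Itga3, Sparc and Timp2, are of the size of this shift.

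The promoter sequences of the genes with the largest changes are shown because these genes rose or fell together in the same cells. RefSeq windows (GRCm38.p6) were matched for 36 of the 46 genes, in 43 windows of which the 250 bases before the start were searched on both strands. Col12a1 had no window. Lama5 (chr2:180225860-180226109, minus strand), Sdc4 (chr2:164443189-164443438, minus strand) and Itgav (chr2:83724147-83724396, plus strand) were the largest rises with a window, and Agrn (chr4:156197489-156197738, minus strand) the largest fall. Agrn has a second RefSeq window, chr4:156186260-156186509, which is not printed. In the deposited gene table Sdc4 has a further exon upstream, so that its window falls within an intron there. Capitals mark GC boxes (GGGCGG or its reverse, CCGCCC), the hypoxia response core GCGTG (or CACGC) and an NF-kB motif (GGGNNTTCC).
Lama5: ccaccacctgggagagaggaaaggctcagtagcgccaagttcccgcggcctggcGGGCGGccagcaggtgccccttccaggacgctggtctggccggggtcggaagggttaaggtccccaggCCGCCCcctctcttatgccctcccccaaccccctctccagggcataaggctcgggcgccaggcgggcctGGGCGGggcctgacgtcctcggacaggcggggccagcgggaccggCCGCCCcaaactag
Sdc4: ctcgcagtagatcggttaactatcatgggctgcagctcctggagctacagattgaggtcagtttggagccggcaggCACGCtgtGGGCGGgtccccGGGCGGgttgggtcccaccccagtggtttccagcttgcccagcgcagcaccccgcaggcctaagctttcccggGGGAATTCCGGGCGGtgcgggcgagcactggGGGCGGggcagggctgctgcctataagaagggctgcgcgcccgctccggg
Itgav: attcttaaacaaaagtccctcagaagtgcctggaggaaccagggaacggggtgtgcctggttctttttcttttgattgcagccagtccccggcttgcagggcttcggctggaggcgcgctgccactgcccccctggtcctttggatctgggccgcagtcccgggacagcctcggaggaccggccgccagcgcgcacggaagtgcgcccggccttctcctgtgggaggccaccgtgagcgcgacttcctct
Agrn: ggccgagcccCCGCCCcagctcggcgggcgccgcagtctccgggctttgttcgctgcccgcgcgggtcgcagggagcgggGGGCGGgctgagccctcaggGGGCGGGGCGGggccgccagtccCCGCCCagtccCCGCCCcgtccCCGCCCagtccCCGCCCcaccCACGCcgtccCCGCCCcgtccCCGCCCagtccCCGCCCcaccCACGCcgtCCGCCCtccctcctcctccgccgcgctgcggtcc
The printed Agrn window held 12 GC boxes and was 83.6% G and C, against 2 GC boxes and 60.8% in its second window. The Lama5 and Sdc4 windows held 4 GC boxes each, and the Itgav window held none of the motifs searched. GC boxes were found in 67.4% of the 43 windows and in 32.7% of all 32851 windows of the same length. The GCGTG core was in 39.5% and 28.2%, the other hypoxia response core ACGTG in 14.0% and 16.6%, the AP-1 motif TGANTCA in 2.33% (Col6a1) and 6.75%, the heat shock motif GAANNTTC in 2.33% (Itgb5) and 6.69%, and the NF-kB motif in 4.65% (Itgb1 and Sdc4) and 4.98%. The GC box and the NF-kB motif were added to the search after the sequences had been seen. Windows were taken whether or not their genes had enough reads for a test, and the differences between these shares were not tested. The Sdc4 NF-kB match ends where a GC box begins, and GC boxes overlap in the printed Agrn window. A match is a string of letters and no evidence of binding.

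Of 11 collagen genes, 8 were tested, of which 5 were higher (Col4a1, Col6a1, Col6a2, Col12a1 and Col18a1), 1 was lower (Col5a1) and 2 did not pass (Col4a2 and Col1a1). Of the 8, 62.5% were higher and 12.5% lower, against 31.0 and 31.8 percent of all genes tested. The median log2 fold change of the 8 was 0.21. Col18a1, whose C-terminal fragment is endostatin, had the highest level per length, with a mean RPKM of 139 ± 4.81 (SD, n = 3) in control and 150 ± 3.34 after H/R. Its normalized counts (counts divided by each library's TMM-scaled size and set to the mean library) were 19580, 19970 and 20340 in control and 22880, 23180 and 23490 after H/R. All 3 H/R libraries lay above all controls, with a log2 fold change of 0.22 ± 0.04 (SE) and an adjusted p of 7.27e-05.

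Col12a1 encodes a collagen that sits on the surface of collagen fibrils, and it showed the largest collagen change. Its normalized counts were 129.7, 119.0 and 124.3 in control and 290.8, 271.8 and 317.8 after H/R, so the lowest H/R library was above every control. The rise was 2.36-fold (log2 1.24 ± 0.10, adjusted p = 1.38e-12). At a mean RPKM of 0.400 ± 0.0164 in control and 0.878 ± 0.0764 after H/R, it remained a low transcript. With limma on log2(RPKM + 1) its log2 fold change was 0.42, below 2-fold, because the pseudocount exceeds its level. Col6a1 and Col6a2, chains of the beaded type VI collagen encoded near each other on chromosome 10, rose too. Col6a1 went from 1071 ± 24.4 to 1641 ± 81.4 normalized counts (log2 0.61 ± 0.05, adjusted p = 1.01e-12) and Col6a2 from 162 ± 6.21 to 284 ± 22.9 (log2 0.81 ± 0.10, adjusted p = 9.60e-09). The RPKM ratio of Col6a1 to Col6a2 was 12.3, 12.8 and 12.6 in control and 10.6, 11 and 11.3 after H/R, so the rarer chain rose by more. Col5a1, a chain of the fibril-starting type V collagen, was the largest fall, with 115.5, 111.2 and 94.1 normalized counts in control and 85.1, 85.2 and 83.9 after H/R. The groups did not overlap, and the log2 fold change was -0.34 ± 0.14 (adjusted p = 0.0397). The call held without control replicate 3 (0.0217) but was lost without any of control replicates 1 and 2 or H/R replicates 1, 2 and 3 (adjusted p 0.0764 to 0.144), with DESeq2 (0.195) and with no filter on low counts (0.0697).

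Col4a1 and Col4a2 encode the main chains of basement membrane collagen and are read in opposite directions from a shared start. In the deposited table Col4a1 covers chr8:11198423-11312826 on the minus strand and Col4a2 covers chr8:11312805-11449287 on the plus strand, so that their first exons overlap by 22 bases. This stretch, chr8:11312805-11312826, is shown on the plus strand, in lower case, because it is where both transcripts begin.
Col4a1 and Col4a2 shared start: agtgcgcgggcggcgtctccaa
The neighbours did not move by the same amount. Col4a1 had 16270, 15960 and 16260 normalized counts in control and 18400, 19260 and 18290 after H/R (log2 0.21 ± 0.04, adjusted p = 0.00013), with no overlap. Col4a2 had 13880, 13320 and 13750 in control and 13970, 14370 and 13600 after H/R, with overlap (log2 0.03 ± 0.04, adjusted p = 0.512), and its sign turned under other scalings. The ratio of their RPKM values does not depend on scaling, and it was 1.04, 1.06 and 1.05 in control and 1.17, 1.19 and 1.19 after H/R. No control ratio reached the lowest H/R ratio. An exact two-sided permutation test gave p = 0.1, the smallest that 3 against 3 libraries allow, for this and for each of the 12 ratios out of 14 described here whose groups did not overlap. With Benjamini-Hochberg adjustment over the 14, none can fall under 0.1.

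The interstitial collagens that mark scar-forming cells were scarcely present. Col1a1, a chain of type I collagen, had raw counts of 5, 12 and 15 in control and 5, 4 and 16 after H/R (log2 -0.22 ± 0.48, adjusted p = 0.712). Col1a2, its partner, had 0, 4 and 0 counts in control and 3, 0 and 1 after H/R. Col3a1, the type III collagen, had 0, 7 and 0 and then 1, 2 and 3, and Col5a2 had 2, 1 and 0 and then 1, 0 and 1. Differences in these genes were not detectable at this depth.

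The laminin chains did not move as a block. Of 10 laminin and basement membrane genes, 8 were tested, of which 4 were higher (Lama5, Lamb2, Lamb3 and Lamc1), 2 were lower (Lamb1 and Agrn) and 2 did not pass (Hspg2 and Nid1), with a median log2 fold change of 0.20. Lama5, the alpha chain of the laminins of mature epithelial basement membranes (chr2:180176373-180225859, minus strand), more than doubled. Its normalized counts were 1520, 1484 and 1557 in control and 3340, 3434 and 3463 after H/R. The groups were far apart relative to their SDs of 36.4 and 64.2, with a 2.24-fold rise (log2 1.17 ± 0.04, adjusted p = 6.42e-22). With library totals or log2(RPKM + 0.1) its log2 fold change was lower by about the shift of all genes. With limma on log2(RPKM + 1) it was 0.96, the lowest value over all alternatives and below 2-fold. That fall was larger than the move of the median of all genes, from -0.0141 to -0.076, in the same setting. A pseudocount of 1 is large enough to shrink the ratio of its mean RPKM values, 6.54 in control and 13.65 after H/R.

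Lamb3, the beta chain of the epithelial laminin-332, had the highest level of this group, with a mean RPKM of 46.7 ± 2.05 in control and 61.2 ± 1.56 after H/R. Its normalized counts were 6233, 6170 and 6514 in control and 8688, 9086 and 8892 after H/R (log2 0.50 ± 0.04, adjusted p = 2.23e-12). Lamc1, the gamma chain of most laminins, rose from 6235 ± 38.8 to 7989 ± 364.5 (log2 0.36 ± 0.04, adjusted p = 5.41e-09), and Lamb2, a beta chain, from 1095 ± 55.4 to 1366 ± 16.7 (log2 0.32 ± 0.05, adjusted p = 1.96e-06). Lamb1, the other beta chain, was a minor transcript with an RPKM of 0.513 ± 0.0514 in control and 0.369 ± 0.0340 after H/R. Its log2 fold change was -0.37 ± 0.15 (adjusted p = 0.0281), and the call was lost without control replicate 1 (0.156), without H/R replicate 1 (0.0588), without H/R replicate 2 (0.111) and with DESeq2 (0.157). Lama3, the alpha chain of laminin-332, had raw counts of 11, 6 and 8 in control and 5, 4 and 4 after H/R, so the alpha partner of the abundant Lamb3 was near the limit of detection in both groups.

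Ratios between laminin chains do not depend on scaling, and 2 were compared, that of an alpha to a gamma chain and that of the alternative beta chains. The Lama5 to Lamc1 ratio of RPKM values was 0.178, 0.172 and 0.181 in control and 0.312, 0.297 and 0.324 after H/R. The Lamb2 to Lamb1 ratio was 14.4, 18.5 and 19.2 and then 27.2, 30.6 and 25.8. Neither ratio overlapped between the groups.

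Agrn encodes agrin, a heparan sulfate proteoglycan, and was the lowest of all 36 genes by fold. Its normalized counts were 2799, 2785 and 2990 in control and 1859, 1799 and 1969 after H/R. All H/R libraries lay below all controls, with a log2 fold change of -0.61 ± 0.05 (adjusted p = 1.46e-13). Hspg2, which encodes perlecan, had 1579 ± 91.2 in control and 1672 ± 61.5 after H/R, with overlapping groups (log2 0.08 ± 0.05, adjusted p = 0.15). It passed only when control replicate 3 was left out (log2 0.13, adjusted p = 0.0291). Nid1, nidogen 1, had 113 ± 6.66 and 117 ± 4.96 (log2 0.05 ± 0.13, adjusted p = 0.757), and Nid2 had 1 count in 1 control library and 0 in the other 5 libraries.

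**Figure D2:**
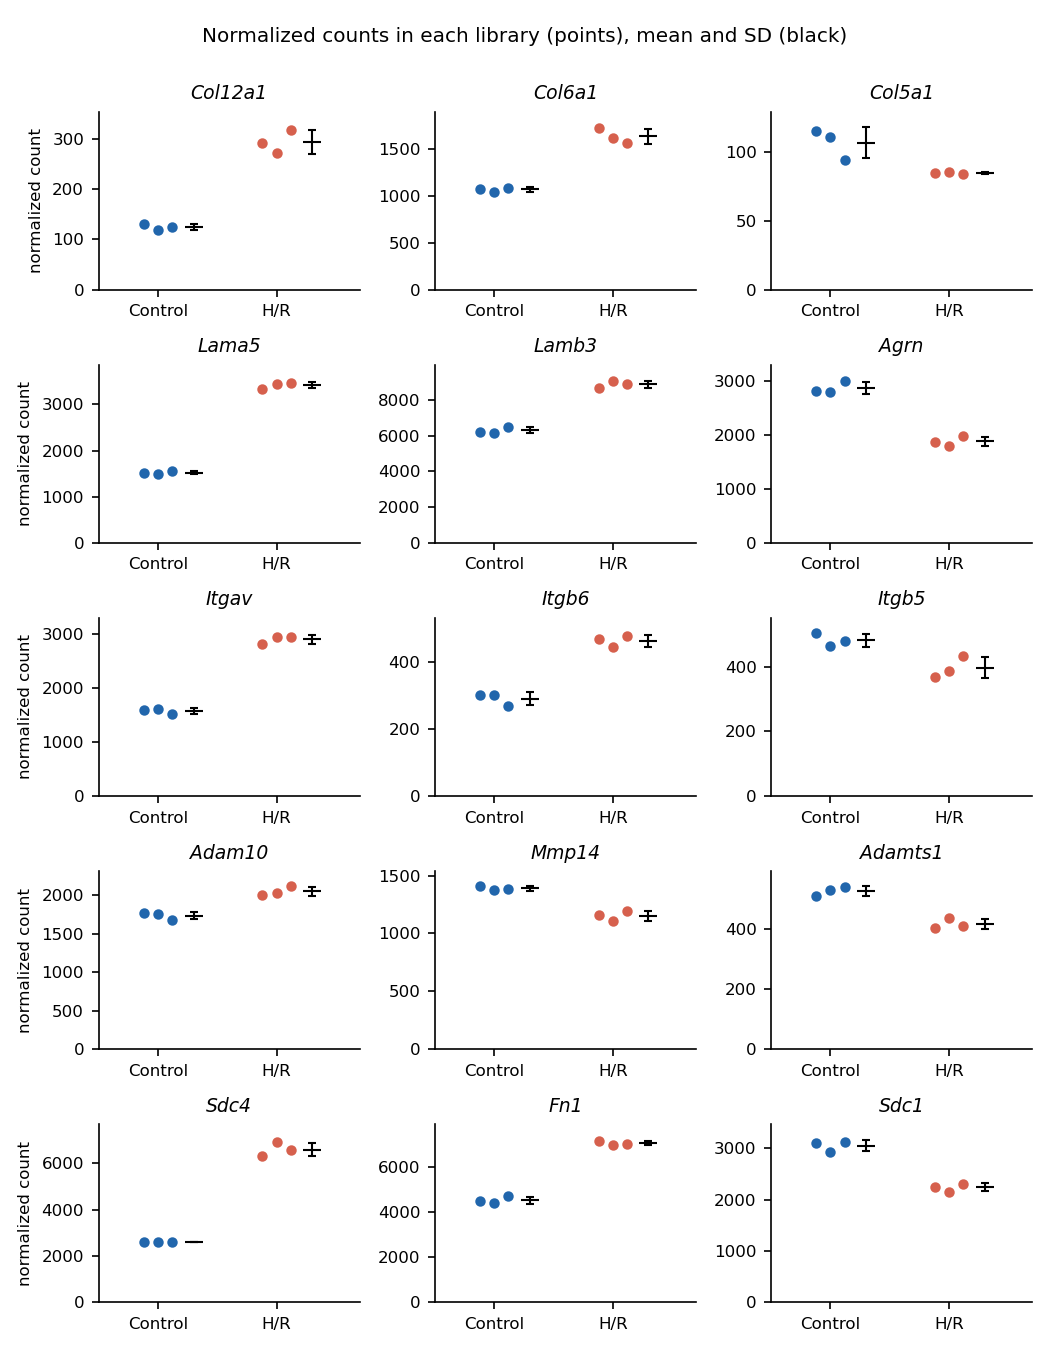
Normalized counts (vertical axes from 0, each gene on its own scale) of 15 genes in each of 3 control (blue) and 3 H/R (red) libraries, with mean and SD in black. In each panel the control and H/R points do not overlap, and Col12a1, Lama5 and Sdc4 more than doubled.

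The integrins divided evenly. Of 10 integrin genes, 9 were tested, of which 4 were higher (Itgav, Itgb6, Itga2 and Itga5), 4 were lower (Itgb5, Itga6, Itgb4 and Itga3) and 1 did not pass (Itgb1), with a median log2 fold change of -0.08. Each direction held 44.4% of the 9. All genes tested divided nearly evenly too, with 31.0 percent higher and 31.8 percent lower. The higher genes include the chains that bind fibronectin and other RGD-containing proteins (Itgav, Itga5 and Itgb6) and a collagen receptor chain (Itga2). The lower genes include Itga6, Itgb4 and Itga3, which form laminin receptors, and Itgb5, a partner of the RGD-binding Itgav. The directions did not sort fully by ligand, since Itgb5 fell, as did Itga1, a further collagen receptor chain given below (log2 -1.45). The calls of Itga3 and Itgb4 were lost with DESeq2.

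Itgav, the alpha-V chain (chr2:83724397-83806916, plus strand), had 1584, 1618 and 1523 normalized counts in control and 2810, 2946 and 2947 after H/R. It was 1.84-fold higher with no overlap (log2 0.88 ± 0.05, adjusted p = 3.20e-18). Exons of another gene on the other strand overlap 5.9% of its exon length, and whether reads were counted by strand is not given in the sources used here. Its beta partners moved apart. Itgb6, an epithelial chain that pairs with alpha-V alone, rose from 291 ± 19.6 to 464 ± 18.1 (log2 0.67 ± 0.08, adjusted p = 4.49e-09). Itgb5 was the largest integrin fall, with 502.8, 462.3 and 480.1 in control and 369.4, 387.2 and 433.7 after H/R. Its groups did not overlap (log2 -0.28 ± 0.08, adjusted p = 0.00188). The RPKM ratio of Itgav to Itgb5 was therefore 0.986, 1.1 and 0.993 in control and 2.38, 2.38 and 2.13 after H/R, while that of Itgav to Itgb6 moved less, from 3.59 ± 0.15 to 4.14 ± 0.22.

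Itgb1, the beta chain shared by most matrix integrins, was the most abundant integrin gene, with a mean RPKM of 96.3 ± 4.72 in control and 84.4 ± 2.23 after H/R. Its normalized counts were 7999, 7740 and 8317 in control and 7528, 7446 and 7708 after H/R. Every H/R library was below every control, but the log2 fold change of -0.08 ± 0.04 did not pass (adjusted p = 0.0815). It passed with upper quartile scaling (log2 -0.16, adjusted p = 0.00197), with library totals (log2 -0.19, adjusted p = 0.000176), with limma on both RPKM scales (adjusted p 0.00757 and 0.00782) and without control replicate 2 (log2 -0.11, adjusted p = 0.0257). Measured against Itgb1, 3 of its alpha partners were higher after H/R. The Itgav to Itgb1 ratio went from 0.0747 ± 0.0049 to 0.146 ± 0.0043, Itga2 to Itgb1 from 0.110 ± 0.0079 to 0.173 ± 0.00068, and Itga5 to Itgb1 from 0.0565 ± 0.0021 to 0.0813 ± 0.0046. Itga6 to Itgb1 was lower, at 0.0906, 0.0985 and 0.0836 in control and 0.0831, 0.0774 and 0.0817 after H/R, with the closest values nearly touching.

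Itga2 itself rose from 911 ± 32.5 to 1347 ± 27.1 normalized counts (log2 0.56 ± 0.05, adjusted p = 1.61e-11) and Itga5, the fibronectin receptor chain, from 494 ± 32.7 to 669 ± 40.4 (log2 0.44 ± 0.07, adjusted p = 7.76e-07). The laminin-binding chains showed small falls. Itga6 went from 1609 ± 73.7 to 1350 ± 65.5 (log2 -0.25 ± 0.05, adjusted p = 5.44e-05). Itgb4, its partner in hemidesmosomes, went from 1045 ± 41.6 to 931 ± 52.1 (log2 -0.17 ± 0.06, adjusted p = 0.00984), a call lost without H/R replicate 3 (0.0593) and with DESeq2 (0.08). Exons of a gene on the other strand overlap 7.66% of its exon length. The Itga6 to Itgb4 ratio was 1.20 ± 0.10 in control and 1.13 ± 0.11 after H/R and overlapped (exact permutation p = 0.6). Itga3 was an abundant chain, with an RPKM of 40.2 ± 2.95 and 34.6 ± 1.26. Its groups overlapped (log2 -0.11 ± 0.04, adjusted p = 0.0321), and the call was lost without control replicate 3 (0.226), without H/R replicate 1 (0.151), without H/R replicate 2 (0.0796) and with DESeq2 (0.117). The Itga3 to Itgb1 ratio overlapped as well, at 0.417 ± 0.018 and 0.411 ± 0.0089 (exact permutation p = 0.6).

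**Figure D3:**
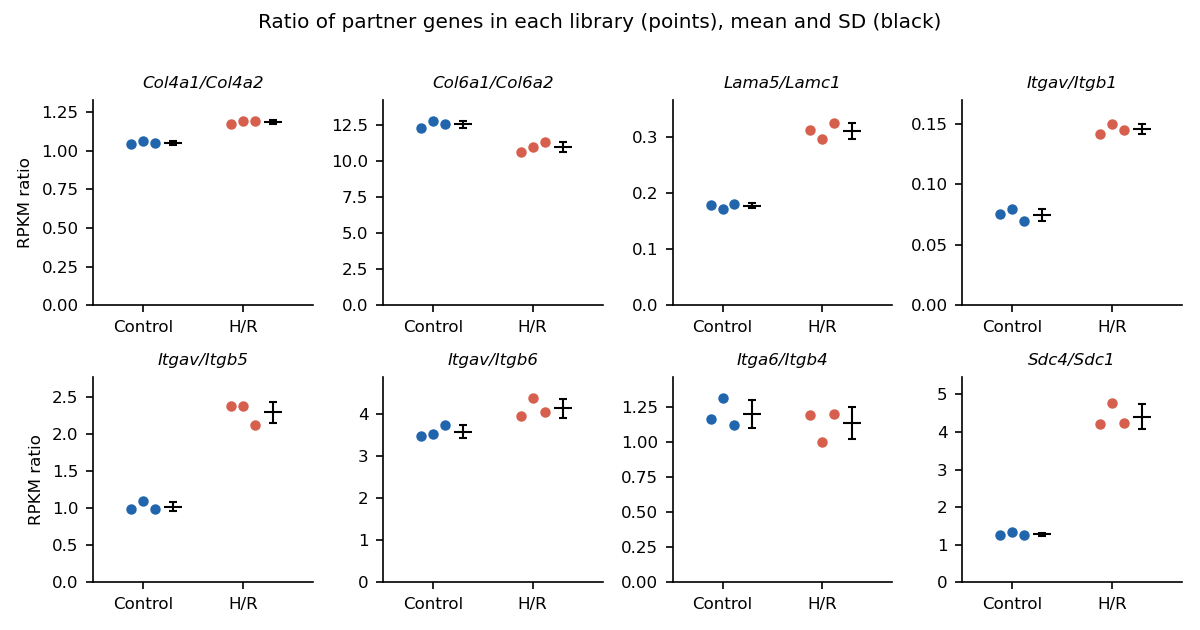
Ratio of RPKM values of 8 pairs of partner genes in each of 3 control (blue) and 3 H/R (red) libraries, with mean and SD in black and vertical axes from 0. The ratio of Itgav to Itgb5 lies at 0.986 to 1.1 in control and 2.13 to 2.38 after H/R, and the Itga6 to Itgb4 ratio overlaps.

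Most of the proteases and inhibitors that could be tested were slightly lower. Of 9 genes, 6 were tested, of which 1 was higher (Adam10), 4 were lower (Adamts1, Mmp14, Adam17 and Timp1) and 1 did not pass (Timp2), with a median log2 fold change of -0.17. Of the 6, 16.7% were higher and 66.7% lower, against 31.0 and 31.8 percent of all genes tested. The groups of Timp1 overlapped, and its call was lost in several alternatives given below. Adam10 and Adam17 are the membrane sheddases that release ligands and receptors from the cell surface, and they moved in opposite directions. Adam10 had 1765, 1751 and 1678 normalized counts in control and 1996, 2031 and 2119 after H/R (log2 0.24 ± 0.05, adjusted p = 2.35e-05). Adam17 had 1823, 1635 and 1680 in control and 1428, 1529 and 1575 after H/R (log2 -0.18 ± 0.05, adjusted p = 0.00249). Neither pair of groups overlapped.

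Adamts1, a secreted protease that cuts proteoglycans, fell most in this group, from 512.3, 531.5 and 542.3 to 406.0, 436.8 and 411.7 (log2 -0.34 ± 0.07, adjusted p = 8.28e-05). Mmp14, a membrane-anchored collagenase that activates Mmp2, went from 1388 ± 19.2 to 1150 ± 43.7 (log2 -0.27 ± 0.05, adjusted p = 1.72e-05). Mmp2 itself had raw counts of 5, 2 and 3 in control and 0, 2 and 0 after H/R, and Mmp15, another membrane-type enzyme, had 1, 1 and 0 and then 3, 0 and 1. Timp2, the inhibitor that takes part in Mmp2 activation by Mmp14, was by far the most abundant gene of this group, with an RPKM of 97.6 ± 3.56 in control and 89.4 ± 7.63 after H/R. Its normalized counts were 7979, 7476 and 7842 and then 7202, 7436 and 8301, with overlap (log2 -0.02 ± 0.05, adjusted p = 0.704), and it passed only with library totals (log2 -0.13, adjusted p = 0.0283). The RPKM ratio of Mmp14 to Timp2 was 0.160, 0.166 and 0.160 in control and 0.145, 0.135 and 0.130 after H/R, with no overlap.

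Timp1, the inhibitor induced in many injured tissues, was not higher here. Its normalized counts were 672.3, 621.3 and 584.6 in control and 597.8, 527.4 and 560.6 after H/R, with overlap (log2 -0.16 ± 0.07, adjusted p = 0.0425). The call did not hold without control replicate 1 (0.25), without control replicate 2 (0.0563), without H/R replicate 2 (0.2), without H/R replicate 3 (0.091), with DESeq2 (0.207), with no filter on low counts (0.0611) or without genes whose exons overlap another gene (0.0504). Timp3, a matrix-bound inhibitor with 21.3% of its exon length inside exons of Syn3 on the other strand, had raw counts of 1, 2 and 2 in control and 2, 4 and 2 after H/R.

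Among the glycoproteins and surface receptors, Sdc4 and Fn1 rose and Sdc1 fell. Of 6 genes, 5 were tested, of which 3 were higher (Sdc4, Fn1 and Cd44), 1 was lower (Sdc1) and 1 did not pass (Sparc), with a median log2 fold change of 0.25. Sdc4, syndecan 4, a proteoglycan of focal adhesions (chr2:164424247-164443887, minus strand), showed the largest change of all 36 genes. Its normalized counts were 2626, 2591 and 2610 in control and 6325, 6901 and 6564 after H/R. The controls lay within an SD of 17.1, and every H/R library was above them (2.53-fold, log2 1.34 ± 0.04, adjusted p = 5.34e-24). Its RPKM went from 50.2 ± 0.778 to 118 ± 5.32, the highest of its group after H/R.

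Sdc1, syndecan 1, the main syndecan of epithelia, moved the other way, from 3104, 2921 and 3121 to 2246, 2158 and 2312 normalized counts (log2 -0.45 ± 0.04, adjusted p = 1.18e-10). No H/R library reached the lowest control. The RPKM ratio of Sdc4 to Sdc1 was 1.27, 1.33 and 1.25 in control and 4.21, 4.78 and 4.24 after H/R, the largest change among the 14 ratios on the log2 scale (1.78). Fn1, fibronectin, which hepatocytes secrete, rose from 4526 ± 166.9 to 7057 ± 98 (1.56-fold, log2 0.64 ± 0.04, adjusted p = 1.64e-15). Cd44, the hyaluronan receptor, rose from 4086 ± 139.6 to 4867 ± 167.4 (log2 0.25 ± 0.04, adjusted p = 3.79e-06). Sparc, a collagen-binding glycoprotein, had the highest RPKM of the group in control, 77.6 ± 3.60, and 68.3 ± 2.29 after H/R. It did not pass (log2 -0.08 ± 0.04, adjusted p = 0.101) except with upper quartile scaling (0.00253), library totals (0.000229) and limma on RPKM (0.00993 and 0.0102). Tnc, tenascin C, a glycoprotein of wounds, had raw counts of 6, 7 and 5 in control and 4, 3 and 7 after H/R.

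**Figure D4:**
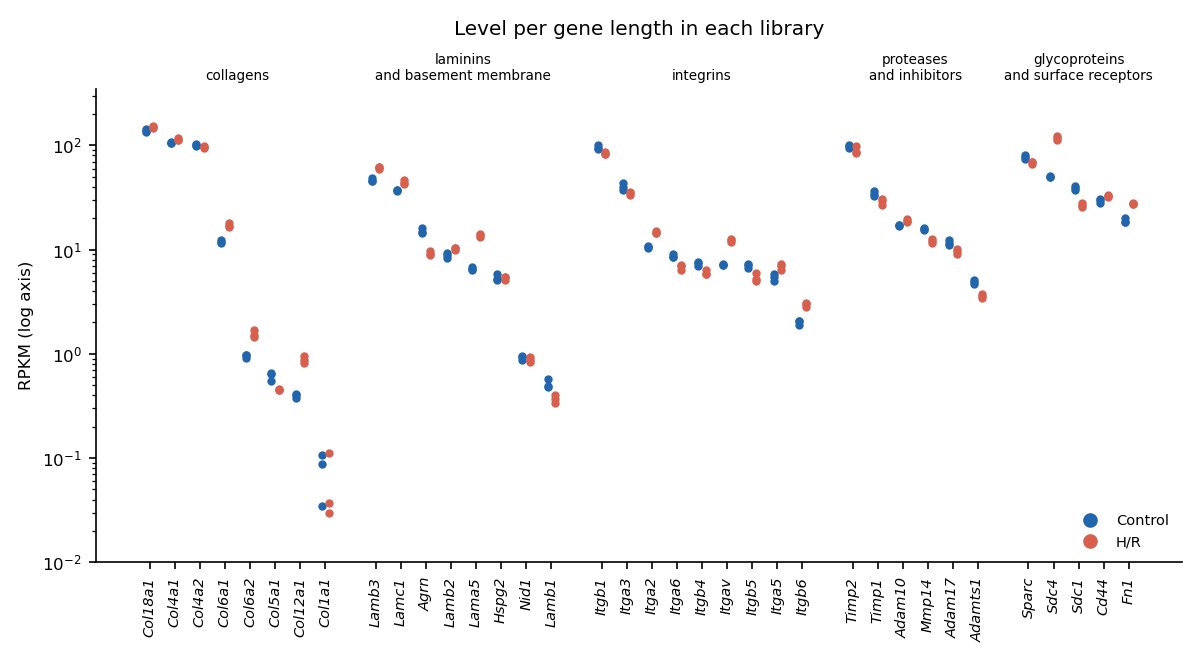
RPKM on a log axis of the 36 tested genes in each of 3 control (blue) and 3 H/R (red) libraries, ordered within each group by the control mean. Control means run from 0.0763 for Col1a1 to 139 for Col18a1, and within each gene the 2 colours lie close together on this scale.

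In 4 of the 5 groups a few transcripts held most of the reads. Col18a1, Col4a1 and Col4a2 held 39.4%, 31.8% and 25.3% of all collagen reads, Lamb3 and Lamc1 held 33.5% and 31.4% of the laminin and basement membrane reads, Itgb1 and Itga3 held 40.0% and 23.2% of the integrin reads, and Timp2 held 56.9% of the protease and inhibitor reads. Of these 8 genes, Lamb3 changed most, by 1.41-fold. Among the glycoproteins and receptors the reads were spread more evenly, from 11.5% for Sdc1 to 25.2% for Sparc, with Tnc at 0.023%. The summed share of all reads was 0.0945% to 0.101% in control and 0.112% to 0.118% after H/R for the laminins and basement membrane genes, and 0.0967% to 0.104% and 0.120% to 0.121% for the glycoproteins and receptors. For the collagens it was 0.247% to 0.258% in control and 0.261% to 0.268% after H/R. None of these shares overlapped between the groups of libraries. The integrin share, at 0.0914% to 0.0975% and 0.0888% to 0.0939%, did. For the proteases and inhibitors the share was 0.0653% to 0.0685% in control and 0.0579% to 0.0652% after H/R. These did not overlap, but the closest values nearly touched.

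The other genes of the same families were taken from lists of 151 genes, of which 71 were tested. Of these, 52 passed (73.2%, against 62.8 percent of all genes tested), 28 higher (39.4%, against 31.0 percent) and 24 lower (33.8%, against 31.8 percent). Of 7 other collagens tested, 6 were lower (85.7%) and 1 did not pass. Their median log2 fold change was -0.64, and all 7 fitted values were negative. Among them Col27a1, a cartilage-type fibrillar collagen, fell from 1106 ± 59.4 to 550 ± 20.1 normalized counts (log2 -1.01 ± 0.06, adjusted p = 1.54e-16). Of 7 other laminin and basement membrane genes, 2 were higher (28.6%) and 4 lower (57.1%), with a median of -0.65. Of 24 other integrins and adhesion partners, 12 were higher and 6 lower (median 0.15). Zyx, which encodes the focal adhesion protein zyxin, rose 3.24-fold, from 1160 ± 62.4 to 3754 ± 104.2 (adjusted p = 1.21e-25), and Itga1, another collagen receptor chain, fell from 182 ± 2.81 to 66.5 ± 2.17 (log2 -1.45 ± 0.13, adjusted p = 6.19e-12).

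Of 18 other proteases and inhibitors, 7 were higher (38.9%) and 4 lower (22.2%), with a median of 0.32. The share that passed, 61.1%, was close to the 62.8 percent of all genes. Mmp28, an epithelial metalloprotease, fell from 280 ± 12 to 119 ± 13.9 (log2 -1.23 ± 0.11, adjusted p = 3.57e-12). The largest change in this list was a rise of a gene with few reads, Mmp13, a collagenase, named here after its values were seen, from 10.5 ± 2.6 to 78.6 ± 9.07 normalized counts (log2 2.89 ± 0.25, adjusted p = 3.03e-12). Of 15 other glycoproteins and proteoglycans, 7 were higher (46.7%, against 31.0 percent of all genes) and 4 lower (26.7%, against 31.8 percent), with a median of 0.06. The largest rises there were in the matricellular genes Thbs1, thrombospondin 1, from 42.4 ± 10.1 to 241 ± 7.55 (5.67-fold, adjusted p = 4.25e-17), and Cyr61, an integrin ligand, from 159 ± 25.1 to 710 ± 71.7 (4.46-fold, adjusted p = 2.38e-17). Both changes were larger than any among the 36 genes described above.

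**Figure D5:**
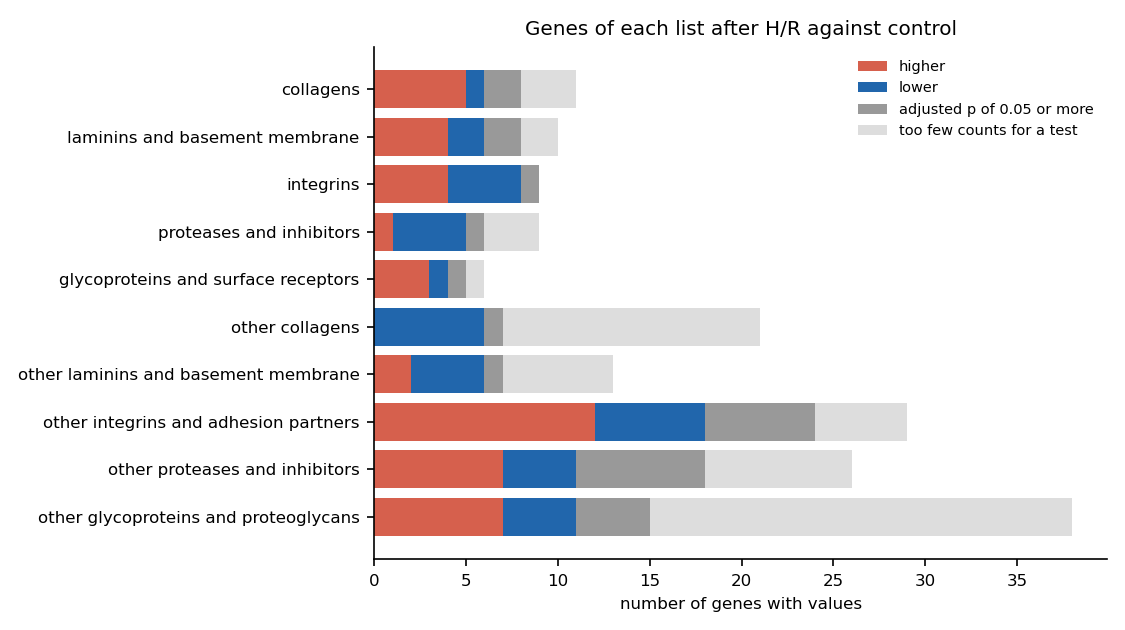
Number of genes with values in each list (horizontal axis), divided into higher (red), lower (blue), not passing (grey) and too few counts for a test (light grey), for the 5 groups described here (top) and the 5 lists of other genes of the same families (bottom). The other collagens have 6 lower genes and 1 that did not pass, and the collagens described here have 5 higher and 1 lower.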

How the data were processed

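RNA-seq was performed on 3 normoxic control and 3 H/R libraries of AML12 cells, grouped and numbered by the sample titles. Per the labels, libraries were made from total RNA with a stranded mRNA kit. The submitters' processing notes name Trimmomatic 0.36, featureCounts of Subread 1.5.1, edgeR 3.12.1 and GRCm38. The paper's methods name the mapping software as STRA, probably STAR, and the strand setting of counting is not given in the sources used here. The count of each gene was deposited by the authors as a whole number without normalization. RPKM, as deposited, is that count over gene length and library total, and it could be recomputed with a largest relative error of 1.13e-06. In 24 lines a date stood in place of the gene symbol.

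Counts were tested with edgeR 4.0.16 (R 4.3.3): filterByExpr, TMM, a robust quasi-likelihood fit on group and Benjamini-Hochberg adjustment over 14020 genes at 0.05. A fold of 2 was the second threshold. Normalized counts are counts over TMM-scaled library size, set to the mean library. Alternatives used DESeq2 1.42.0, limma 3.58.1 on log2(RPKM + 1) and log2(RPKM + 0.1), other scalings and filters, a replicate block and 1 library left out at a time. The scripts were tested on simulated data. Ratios were compared by exact permutation. Values in every library are given for genes past both thresholds, for the largest rise and fall and the highest RPKM of each group, and for some genes chosen after their values were seen. Of each list of other family genes, up to 2 genes were named, those with the largest change past both thresholds, a mean count of at least 100 and groups that did not overlap. Mmp13 and Itgb3 were named in addition, after their values were seen. A withheld result is not reported here. The genes, lists and tests were chosen with earlier results of these data known, so the results are no independent evidence for them.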

Additional observations from a re-analysis of the deposited data

How the results depend on the processing

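The 17 higher genes were called under each alternative that tested them, and the 12 lower genes became 7 with DESeq2. With limma on log2(RPKM + 1), 1 gene passed both thresholds in place of 3, and with a fold of 1.5 there were 9. Without genes whose exons overlap another gene, 3 proteases and inhibitors passed in place of 5: Adam17 was no longer tested, and Timp1 did not pass (adjusted p = 0.0504).

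The medians of the groups moved with the scaling of all genes. With library totals they were 0.106 (collagens), 0.0951 (laminins and basement membrane), -0.19 (integrins), -0.272 (proteases and inhibitors) and 0.147 (glycoproteins and receptors). With limma on log2(RPKM + 1) they were 0.105, 0.088, -0.187, -0.256 and 0.143, and on log2(RPKM + 0.1) 0.106, 0.0959, -0.189, -0.271 and 0.147, in the same order. With upper quartile scaling the last 4 were 0.13, -0.155, -0.238 and 0.182. DESeq2 gave -0.0708 for the integrins. Without genes whose exons overlap another gene, Col4a1, Col4a2, Col5a1 and Fn1 were no longer tested. Over the collagens that remained the median was 0.619, and over the remaining glycoproteins and receptors it was 0.0908. These 2 medians are thus over fewer genes. With 1 library left out, the medians ran from 0.172 (without control replicate 1) to 0.241 (without control replicate 3) for the laminins and basement membrane, from -0.111 (without control replicate 2) to -0.0576 (without control replicate 3) for the integrins and from -0.199 (without control replicate 3) to -0.117 (without control replicate 1) for the proteases and inhibitors.

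Of the genes that did not pass, Col4a2, Nid1, Hspg2, Col1a1 and Timp2 changed sign in some alternative. Itgb1 and Sparc stayed negative in every alternative. Under upper quartile scaling Col4a2 was -0.0358, and it was -0.0708 with library totals and -0.0697 and -0.0703 on the RPKM scales, Nid1 was -0.0211, -0.0549, -0.0264 and -0.0503, and Hspg2 was -0.0228 with library totals and -0.018 and -0.0207 on the RPKM scales. With 1 library left out, Col1a1 ran from -1.05 to 0.0931 and Timp2 from -0.0827 to 0.0197. Beyond the scaling shift and the number of genes tested, the cause was not tested.

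Equal replicate numbers did not mark paired libraries: their deviations from the group means correlated at -0.0269, 0.00476 and -0.0141. With the replicate block, 29 genes passed, 17 higher and 12 lower, and it changed no call. At this depth genes with fewer than about 10 reads, such as Col1a2, Col3a1, Mmp2 and Tnc, could not be compared.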
